A study of Mus musculus with 6 samples.

Results

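Cd36 and 8 other genes of fatty acid uptake, binding and lipoprotein lipolysis were followed in mouse liver after gene transfer of TFEB. The 9 genes were taken by symbol from the array's probe annotation, out of 12393 genes measured. They are the membrane receptor Cd36, the fatty acid transport proteins Slc27a2, Slc27a4 and Slc27a5, the fatty acid binding proteins Fabp1, Fabp2, Fabp4 and Fabp5, and lipoprotein lipase, encoded by Lpl. All 17 probe sets that carry these symbols carry no other symbol. Per the labels, 3 wild-type C57 mice received an adenoviral vector for TFEB in the liver and 3 wild-type C57 mice were not injected, all at the age of 1 month, and each liver was measured on 1 Affymetrix array. The labels name neither the promoter that drives TFEB nor mice given a vector without it, so effects of TFEB cannot be told apart from those of the vector or of the injection. They also do not state the sex of the mice or whether the livers were taken in the fed or fasted state.

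Long-chain fatty acids reach hepatocytes from albumin in plasma and from triglyceride-rich lipoproteins, which lipoprotein lipase hydrolyses at the vessel wall of other tissues. CD36, a scavenger receptor, binds them at the plasma membrane, and proteins of the SLC27 family take part in their uptake and couple them to coenzyme A. Small cytosolic binding proteins of the FABP family then carry them to oxidation, esterification and the nucleus. In a healthy adult liver Cd36, Lpl and Fabp4 are known as genes of low expression in hepatocytes that rise in fatty liver, whereas Fabp1, Slc27a2 and Slc27a5 are abundant hepatocyte genes, and Cd36 is known to be higher in the liver of female mice. TFEB is a transcription factor that binds an E-box, and several of these genes are known targets of the PPAR nuclear receptors, which bind DNA with retinoid X receptors at pairs of a 6-base element.

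The RefSeq promoter table of GRCm38.p6 held 5 of the 9 genes, Cd36, Fabp1, Fabp2, Slc27a2 and Slc27a4. The 250 bases before the annotated start are shown for 3 of them, to set a gene that rose (Cd36) beside a gene that fell (Fabp2) and a gene that was not called (Fabp1). Capitals mark the nuclear receptor element AGGTCA on either strand and the TATA box TATAAA on the strand of the gene. The windows lie at chr5:17835897-17836146 on the minus strand for Cd36, at chr3:122894822-122895071 on the plus strand for Fabp2 and at chr6:71199629-71199878 on the plus strand for Fabp1.
Cd36: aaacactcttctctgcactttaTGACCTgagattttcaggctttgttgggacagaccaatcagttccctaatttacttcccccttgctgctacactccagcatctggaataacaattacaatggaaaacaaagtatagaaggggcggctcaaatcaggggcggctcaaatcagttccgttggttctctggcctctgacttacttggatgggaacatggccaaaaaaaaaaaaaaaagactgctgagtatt
Fabp2: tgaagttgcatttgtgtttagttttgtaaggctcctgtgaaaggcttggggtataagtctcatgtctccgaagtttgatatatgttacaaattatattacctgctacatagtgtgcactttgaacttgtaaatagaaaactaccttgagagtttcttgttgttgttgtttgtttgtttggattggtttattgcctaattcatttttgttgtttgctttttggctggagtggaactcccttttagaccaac
Fabp1: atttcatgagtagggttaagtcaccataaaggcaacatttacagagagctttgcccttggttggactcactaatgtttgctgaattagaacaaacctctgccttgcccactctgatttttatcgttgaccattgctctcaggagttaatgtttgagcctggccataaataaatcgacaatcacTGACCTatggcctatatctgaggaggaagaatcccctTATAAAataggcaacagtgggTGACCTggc
The Cd36 window held 1 such element, which began 228 bases before the start, the Fabp1 window held 2, at 67 and 9 bases before it, and the Fabp2 window held 0. Slc27a2 had 1 element, 220 bases before its start, and Slc27a4 had 0. The element was present in 14% of the 32851 promoter windows of the table. The E-box CACGTG was in none of the 5 windows and in 6.02% of all windows. The direct repeat AGGTCANAGGTCA, searched on both strands, was in none of the 5 and in 0.0335% of all, and each such repeat also counts as single elements. Fabp1 had a TATA box 30 bases before its start, and 7.59% of all windows held one. These are exact matches of letters in a short window and say nothing of more distant elements. Elements that differ from the letters at any base were not searched for. As the exact repeat is rare in all windows, its absence from the 5 does not show that they lack such a repeat.

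Of the 9 genes, 3 rose in TFEB-injected livers, 2 fell and 4 were not called. The call rested on limma's moderated test over all genes, at an adjusted p below 0.05. Of all 12393 genes, 28.1% were called in either direction by the same rule, 14.2% as higher and 13.9% as lower in injected livers. Cd36, Lpl and Fabp5 were the genes that rose, and Fabp2 and Slc27a5 those that fell. The median difference of the 9 genes was 0.03 on the log2 scale, injected minus not-injected, and that of all genes was -0.05. All 3 injected arrays lay to one side of all 3 not-injected arrays in 6 of the 9 genes, which was so in 46.2% of all genes.

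The values are log2 intensities per probe set after RMA, as deposited, and levels of different probe sets are not on a common scale. Where a gene had several probe sets, the one with the highest mean over all arrays stands for it. The hepatocyte markers were at the top of the range in both groups, with mean levels of 14.40 to 14.47 in injected and 14.49 to 14.52 in not-injected livers. Of the 7 measured, 0 were called by limma and 2 had an unadjusted p below 0.05. Under some single alternatives 1 was called as lower (without variance moderation, with an intensity trend, over genes at or above the median level, centred on the array median, or without injected replicate 1). The probe set of Tfeb read 7.48, 7.78 and 7.46 in injected livers and 7.50, 7.59 and 7.47 in not-injected livers, and the sources used here do not say whether its probes detect the transgene. Injected replicate 2 correlated with the other injected arrays at 0.990 across genes, against 0.997 between replicates 1 and 3, and with the not-injected arrays at 0.984 to 0.986, against 0.970 to 0.973 for replicates 1 and 3. Spike-in transcripts also differed between the groups. Their median difference, injected minus not-injected, was -0.32 for hybridisation controls (18 probe sets) and -0.44 for poly-A controls (24 probe sets).

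**Figure D1:**
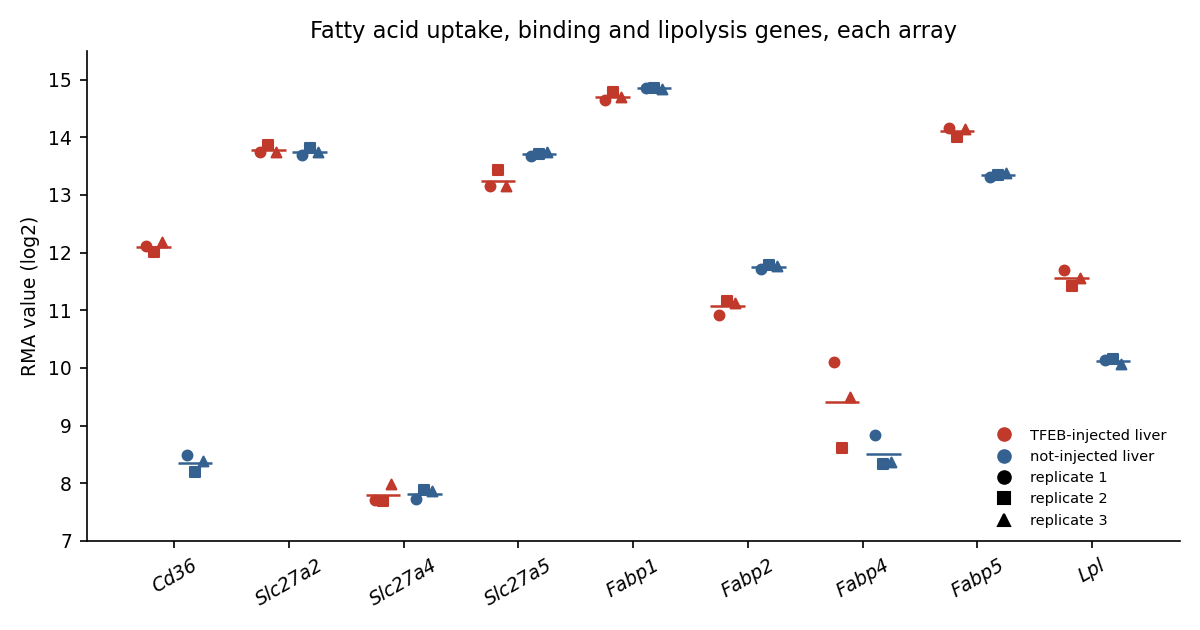
RMA values (log2) of the 9 genes on each of the 6 arrays, with TFEB-injected livers in red left of not-injected livers in blue, horizontal lines at the group means and a symbol for each replicate number; heights of different genes are not on a common scale. The red and blue points of Cd36 are 3.52 apart at their nearest, while those of Fabp4 overlap, with injected replicate 2 at 8.61.

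Cd36, which encodes the membrane receptor for fatty acids and oxidised lipoproteins, had the largest rise of the 9 genes. Its value was 12.115, 12.003 and 12.178 in the 3 injected livers, against 8.486, 8.196 and 8.391 in not-injected livers. Every injected liver lay far above every not-injected liver, and the spread within each group was small beside the distance. The difference was 3.74 ± 0.09 (SE), a 13.4-fold rise (limma adjusted p = 3.1e-06, 95% interval 3.53 to 3.96). Only 19 of the 12393 genes had a larger rise.

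The other probe sets of Cd36 gave rises of similar size. Probe set 1450883_a_at read 11.55, 11.31 and 11.62 in injected livers and 7.52, 7.29 and 7.60 in not-injected livers, a 16.3-fold rise (limma adjusted p = 3.69e-06 over all probe sets). Probe set 1450884_at read 9.21, 9.25 and 9.31 in injected livers and 5.69, 5.52 and 5.34 in not-injected livers, again a 13.4-fold rise (limma adjusted p = 2.98e-06). Without injection this dimmer probe set lay about at the lower quartile of the arrays, which was 5.46 to 5.56. The annotation gives the same source accession to all 3 probe sets, so they are repeated readings of 1 gene and not independent of each other.

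**Figure D2:**
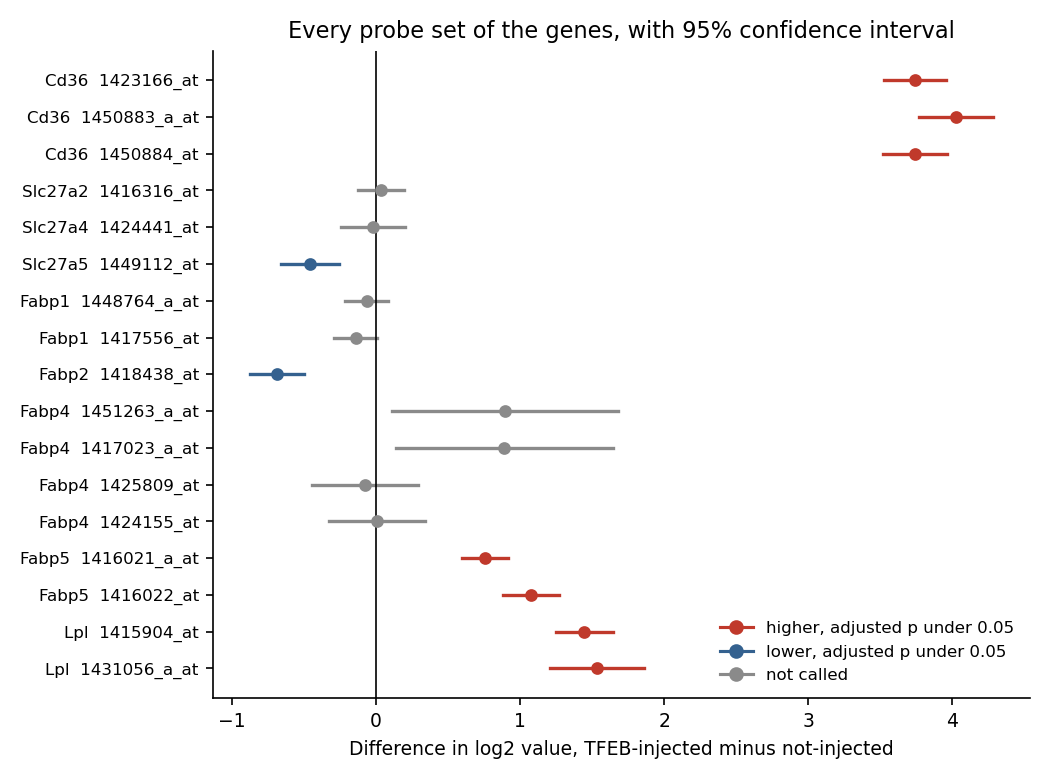
Difference in log2 value, TFEB-injected minus not-injected livers, for each of the 17 probe sets of the 9 genes, with points for the estimates and lines for 95% confidence intervals of the limma fit over all probe sets. The 3 probe sets of Cd36 lie at 3.74 to 4.02, and the 4 of Fabp4 fall into a pair at 0.89 and a pair near 0.

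Of the 3 SLC27 genes 1 fell and 2 were not called. Their proteins take part in fatty acid uptake and activate very long-chain fatty acids. Slc27a2, an acyl-CoA synthetase abundant in liver, read 13.74, 13.86 and 13.75 in injected livers, against 13.69, 13.81 and 13.75 in not-injected livers. The groups overlapped, and the difference of 0.03 had a 95% interval of -0.13 to 0.19 (limma adjusted p = 0.741). Slc27a4, a widely expressed transport protein with acyl-CoA synthetase activity, read 7.71, 7.70 and 7.98 in injected livers, against 7.72, 7.88 and 7.87 in not-injected livers. Its difference of -0.02 had an interval of -0.25 to 0.20 (limma adjusted p = 0.884), and its groups overlapped as well.

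Slc27a5 encodes the bile acyl-CoA synthetase of the liver, which also activates fatty acids. It read 13.16, 13.43 and 13.16 in injected livers, against 13.68, 13.71 and 13.74 in not-injected livers. All injected livers were lower, with replicate 2 nearest to the not-injected group. The gene fell by 0.46 ± 0.09 on the log2 scale (limma adjusted p = 0.00842), a difference of 1.37-fold. The size is close to the median difference of the poly-A spike-ins (-0.44), and the part of labelling or hybridisation in it was not tested.

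Of the 4 binding proteins of the FABP family 1 rose, 1 fell and 2 were not called. Fabp5, the epidermal type that macrophages also make, read 14.16, 14.01 and 14.14 in injected livers, against 13.31, 13.35 and 13.38 in not-injected livers. Every injected liver was higher, and the difference was 0.76 ± 0.07 (1.69-fold, limma adjusted p = 0.000453). The other probe set of Fabp5 read 13.05, 12.83 and 13.08 in injected livers and 11.89, 11.88 and 11.95 in not-injected livers. That probe set rose 2.11-fold (limma adjusted p = 0.000242 over all probe sets). The brighter of the pair, which stands for the gene, gave the smaller rise and lay nearer to the top of the arrays.

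Fabp2, the binding protein first known from the intestine, fell. It read 10.92, 11.16 and 11.13 in injected livers, against 11.71, 11.78 and 11.77 in not-injected livers. The groups were 0.56 apart at their nearest, and the gene fell by 0.69 ± 0.08 (1.61-fold, limma adjusted p = 0.00123). Single spike-in probe sets differed by as much as -0.57, and the part of labelling or hybridisation in this fall was not tested. Of 6 markers of intestinal epithelium measured, 3 read below the lower quartile on all arrays, among them villin, encoded by Vil1, and the mean level of the 6 was 5.09 to 5.14 in injected and 5.32 to 5.42 in not-injected livers. The 6 had a median difference of -0.25, and 2 of them fell, beside 13.9% of all genes called as lower. Cdx1 fell by 0.64 on the log2 scale, from 5.33 to 5.68 in not-injected to 4.71 to 5.02 in injected livers. Lct fell by 0.26 and read below the lower quartile on all arrays. Of these 2 falls 1 was left without any one of not-injected replicates 2 and 3 and injected replicate 3, and 0 without variance moderation. The part of such cells in the fall of Fabp2 was not tested.

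Fabp1, the abundant binding protein of hepatocytes, did not pass the test. It read 14.65, 14.78 and 14.69 in injected livers, against 14.85, 14.86 and 14.83 in not-injected livers. The injected livers were all lower, by a gap of 0.05, and the difference was -0.14 ± 0.06 (limma adjusted p = 0.135). Its second probe set read 14.69, 14.77 and 14.66 in injected livers and 14.78, 14.76 and 14.77 in not-injected livers, and there the groups overlapped. Both probe sets lay near the top of the arrays, whose highest values were 15.1 to 15.2.

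Fabp4, the binding protein of adipocytes and macrophages, was high in 2 of the 3 injected livers. It read 10.10, 8.61 and 9.49 in injected livers, against 8.83, 8.33 and 8.36 in not-injected livers. Injected replicate 2 lay below not-injected replicate 1, so that the groups overlapped. The difference was 0.89 ± 0.34 and did not pass the test (1.86-fold, limma adjusted p = 0.0902). Without injected replicate 2 it was 1.29 ± 0.21 and passed (limma adjusted p = 0.00315).

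The probe sets of Fabp4 were divided. One, 1417023_a_at, followed the same order of arrays, with 9.84, 8.43 and 9.22 in injected livers and 8.61, 8.06 and 8.15 in not-injected livers. Probe set 1424155_at read 4.533 to 4.986 in injected livers and 4.579 to 4.997 in not-injected livers, below the lower quartile on all 6 arrays. Probe set 1425809_at read 5.45 to 5.94 in injected livers and 5.54 to 6.02 in not-injected livers. These 2 dim probe sets differed by 0.00 and -0.08, each with a standard error of 0.14 to 0.16, and with no detection calls it is not known whether they measured the transcript at all. In the RefSeq table Fabp5, Pmp2, Fabp9, Fabp4 and Fabp12 follow each other on chromosome 3. Of the genes between and beside Fabp4 and Fabp5, Fabp9 was measured, and at 4.89 ± 0.20 in injected and 4.94 ± 0.08 in not-injected livers (SD, n = 3 each) it was below the lower quartile on all arrays.

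Lpl, which encodes the lipase that releases fatty acids from chylomicrons and very low-density lipoproteins, rose. It read 11.70, 11.42 and 11.56 in injected livers, against 10.13, 10.15 and 10.06 in not-injected livers. The groups were 1.27 apart at their nearest, and the difference was 1.45 ± 0.08 (2.72-fold, limma adjusted p = 9.01e-05). The second probe set read 8.99, 8.70 and 8.80 in injected livers and 7.59, 7.22 and 7.08 in not-injected livers, a 2.89-fold rise (limma adjusted p = 0.000475 over all probe sets). Over all probe sets with 1 symbol, 9 of the 17 of these genes were called, against 26% of 20380.

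Injected replicate 2 was the injected liver nearest to the not-injected mean in all 5 called genes. This was so in 62.7% of all 3486 called genes, with 14.7% for replicate 1 and 22.6% for replicate 3. For Cd36 the 3 injected livers lay 3.76, 3.65 and 3.82 above the not-injected mean, so that replicate 2 was close to the others. For Slc27a5 they lay at -0.55, -0.28 and -0.55, and for Fabp4 at 1.59, 0.10 and 0.98. The livers thus differed more from each other in Fabp4 than in Cd36 on this scale.

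**Figure D3:**
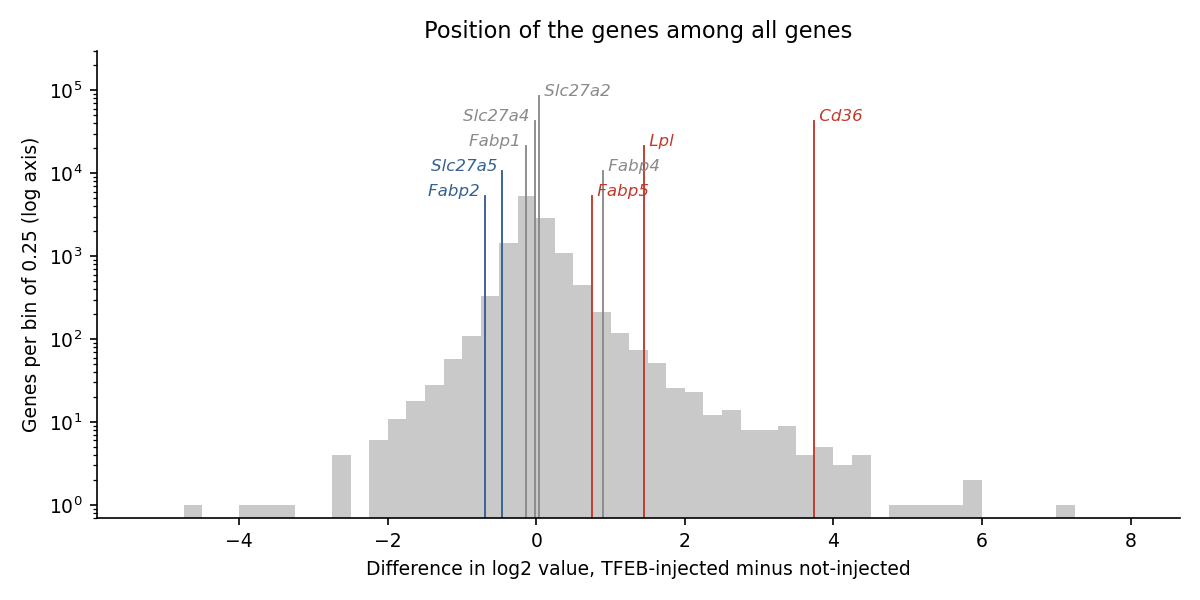
Number of genes (log axis) by difference in log2 value, TFEB-injected minus not-injected livers, in bins of 0.25, with a line of arbitrary height for each of the 9 genes in red for higher, blue for lower and grey for not called. Cd36 stands in the right tail at 3.74, and the other 8 genes lie between -0.69 and 1.45.

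The 5 genes whose profiles were closest to that of Cd36 were Snhg11, Haus8, Uap1l1, Cox7a1 and Epdr1. Likeness was the root mean square difference over the 6 arrays after each gene was set to 0 at its mean in not-injected livers. It ranged from 0.164 for Snhg11 to 0.334 for Epdr1. Snhg11, a host transcript of small nucleolar RNAs, read 9.553, 9.207 and 9.394 in injected livers, against 5.819, 5.334 and 5.998 in not-injected livers. Haus8, which encodes a subunit of the augmin complex of the spindle, read 10.54, 10.21 and 10.34 in injected livers, against 6.80, 7.09 and 6.63 in not-injected livers. The 5 genes rose 10.9- to 12.7-fold, which follows from the choice, since likeness took in the size of the rise. The 9 genes themselves were left out of the choice. None of the 5 is in the other lists of lipid genes read here. When the probe sets of a gene were averaged, the difference of Epdr1 was 2.16.

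The relatives of these genes gave 1 further call. The counts of every list are read beside the 14.2% of all genes called as higher and the 13.9% called as lower. Of 6 other SLC27 and FABP genes measured 1 rose, 0 fell and 5 were not called. The riser was Fabp3, the binding protein of heart and muscle, which read 8.21, 7.59 and 8.43 in injected livers, against 6.20, 6.39 and 6.42 in not-injected livers, a 3.33-fold rise (limma adjusted p = 0.00117). The list had a median difference of -0.07, near the -0.05 of all genes, and without not-injected replicate 1 it had 2 genes higher.

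Genes that act with lipoprotein lipase moved both ways, as did genes at large. Of 13 genes of lipoprotein lipolysis 3 rose, 4 fell and 6 were not called, with a median of -0.09. Over all genes 14.2% were called as higher and 13.9% as lower. Pcsk5, a proprotein convertase that cleaves lipases, rose by 0.61 ± 0.07 (limma adjusted p = 0.0014), although the mean of its 4 probe sets gave 0.17 and no call (adjusted p = 0.0949). Apoc2, the activating cofactor of the lipase, rose by 0.55 ± 0.09 (limma adjusted p = 0.00463). Sel1l, which is needed for the lipase to leave the endoplasmic reticulum, fell by 0.44 ± 0.06 (limma adjusted p = 0.00292).

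The angiopoietin-like inhibitors of lipoprotein lipase were opposed, and they are named here after their values were seen. Angptl4, induced in fasting, read 11.24, 10.80 and 10.92 in injected livers, against 10.31, 9.68 and 9.83 in not-injected livers, and rose 2.07-fold. Angptl8, induced by feeding, read 8.56, 7.99 and 8.54 in injected livers, against 9.26, 10.02 and 9.66 in not-injected livers, and was 2.44-fold lower. Of the 2 probe sets of Angptl4 1 was called, and with both averaged the difference was 0.54, against 1.05. Both genes had a limma adjusted p of 0.00529, and both lost the call without variance moderation (0.0584 and 0.0601). The 4 falls of the list were 2 without any one of not-injected replicates 2 and 3 and injected replicates 1 and 3, and 1 without variance moderation.

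Receptors for lipoproteins showed small differences. Of 10 lipoprotein and scavenger receptors 1 rose, 3 fell and 6 were not called, with a median of 0.01, beside 28.1% of all genes called. Lsr, the lipolysis-stimulated lipoprotein receptor, fell by 0.56 ± 0.08 (limma adjusted p = 0.0024) and Lrp1, a receptor for remnant particles, by 0.56 ± 0.10 (limma adjusted p = 0.00769; 0.0557 without variance moderation). Cxcl16, a membrane chemokine that binds oxidised lipoproteins, rose by 0.40 ± 0.07 (limma adjusted p = 0.0077). Scarb1, the receptor for high-density lipoproteins, is named outside the rule as the class B relative of Cd36, and it differed by 0.10 ± 0.07 and was not called (limma adjusted p = 0.361).

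Other genes of uptake and activation are read beside the 28.1% called over all genes. Of 6 genes of membrane uptake and Cd36 partners 2 rose and 4 were not called, with a median of -0.16. Fyn, a kinase that binds CD36, rose by 0.67 ± 0.13 (limma adjusted p = 0.00966) and the caveolin Cav2 by 0.42 ± 0.09 (limma adjusted p = 0.0129). Fyn lost the call without variance moderation, and Cav2 lost it there, without not-injected replicate 3 and with its probe sets averaged, where the difference was 0.16. Of 7 acyl-CoA synthetases and acyl-CoA binding proteins 6 were not called and 1 fell, with a median of -0.11. The 1 was Acsl6, a synthetase known from brain, which differed by -0.39 at values below the lower quartile on all arrays and lost the call without variance moderation and without any one of not-injected replicates 2 and 3 and injected replicates 1 and 3.

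Among 14 nuclear receptors and coactivators of fatty acid genes 3 rose, 4 fell and 7 were not called, with a median of -0.11. Over all genes 28.1% were called. Ppargc1a, the coactivator PGC-1 alpha, read 10.32, 10.14 and 10.05 in injected livers, against 8.15, 7.61 and 8.04 in not-injected livers (limma adjusted p = 0.000122). Pparg, the receptor that activates Cd36, Fabp4 and Lpl in adipocytes and macrophages, read 8.61, 8.56 and 8.74 in injected livers, against 7.05, 7.46 and 7.14 in not-injected livers, a 2.67-fold rise (limma adjusted p = 0.000286). Ahr, the aryl hydrocarbon receptor, fell by 0.48 ± 0.07 (limma adjusted p = 0.00397), with 1 of its 2 probe sets called. The PPAR gene Ppara differed by 0.03 ± 0.07 and was not called (limma adjusted p = 0.761). The retinoid X receptor gene Rxra fell by 0.32 ± 0.07 (limma adjusted p = 0.0107), with 1 of its 2 probe sets called. The 4 falls were 2 without either of not-injected replicates 2 and 3, and also without variance moderation.

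**Figure D4:**
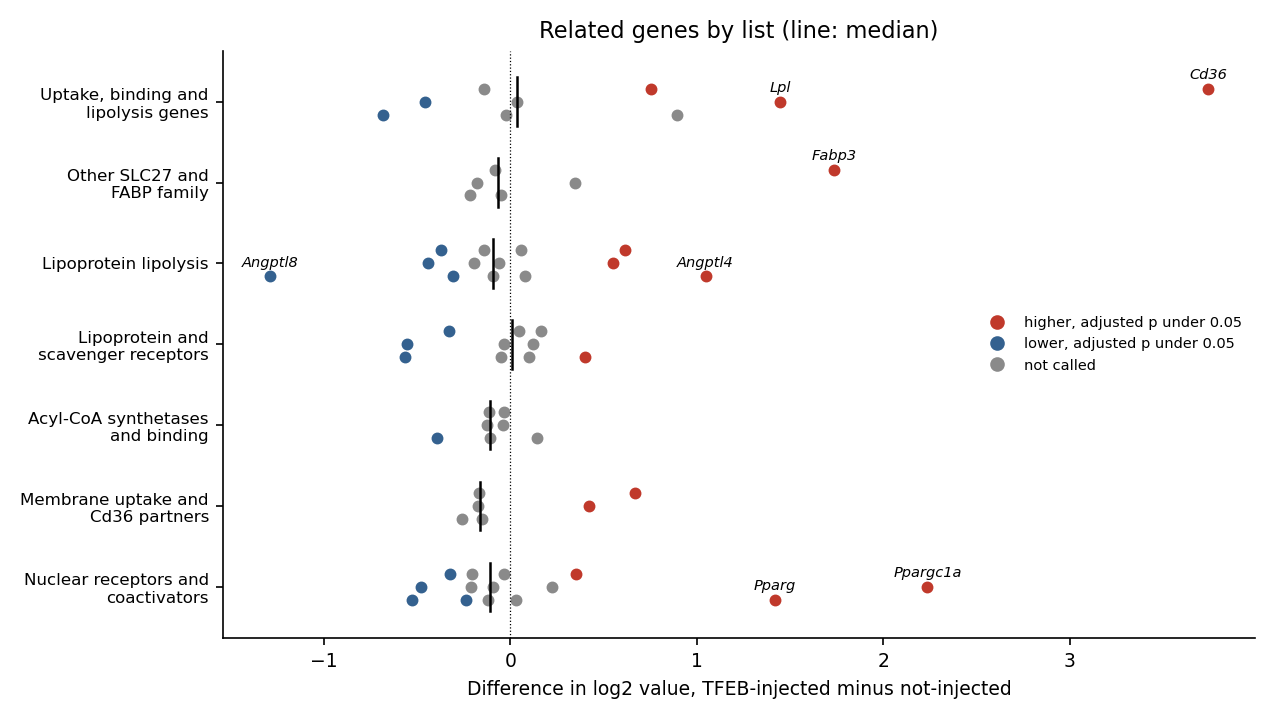
Difference in log2 value, TFEB-injected minus not-injected livers, of the 9 genes (top) and of 6 lists of related genes, with 1 point per gene, black lines at the medians and names for differences beyond 1 in size. The medians of the 6 lists lie between -0.16 and 0.01, while single genes such as Fabp3, Pparg and Ppargc1a lie to the right.

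Cd36, Lpl, Fabp4 and Fabp5 are also genes of macrophages, endothelium or fat cells, and markers of these cells were read on the same arrays. Their counts stand beside the 28.1% called over all genes, 14.2% as higher and 13.9% as lower. In a tissue sample, a change in the number of cells of a type and in RNA per cell cannot be told apart. Of 13 macrophage and Kupffer cell markers 3 rose, 1 fell and 9 were not called, and their mean level was 9.04 to 9.20 in injected and 8.70 to 9.05 in not-injected livers. The macrosialin gene Cd68 read 8.96, 7.94 and 9.28 in injected livers, against 7.30, 6.98 and 6.67 in not-injected livers, and the lysozyme gene Lyz2 rose by 0.93 ± 0.13 (limma adjusted p = 0.0025). The gene that fell was Marco, by 0.80 ± 0.20 (limma adjusted p = 0.0238). The median difference of the list was 0.18. Without not-injected replicate 1 it had 6 genes higher, and without variance moderation, where Cd68 was not called, 1 higher. It had 0 lower in both of these, over genes at or above the median level, and without any one of not-injected replicates 2 and 3 and injected replicates 1 and 3.

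Of 11 endothelial markers 4 rose and 7 were not called, with a median of 0.18, and their mean level was 8.33 to 8.51 in injected and 7.95 to 8.08 in not-injected livers. The largest rises were in the hyaluronan receptors Lyve1 (2.10 ± 0.15, limma adjusted p = 0.000201) and Stab2 (0.96 ± 0.14, limma adjusted p = 0.00319), and the list had 2 genes higher without any one of not-injected replicates 2 and 3 and injected replicate 1. Among the 7 not called, Eng and Flt1 differed by -0.18 and -0.04, and the rest by 0.01 to 0.22. Of 7 leukocyte markers 2 rose, S100a8 and Ptprc, with a median of 0.40, and their mean level was 6.42 to 6.87 in injected and 6.22 to 6.42 in not-injected livers. Among the 5 not called, Cd3e, Cd3g and Cd79a differed by -0.20, -0.07 and -0.09, and the rest by 0.40 and 0.54. The list had 1 gene higher without any one of the not-injected replicates, and 0 without variance moderation. Of 8 stellate cell and fibroblast markers 1, Reln, fell, with a median of 0.12 and a mean level of 8.12 to 8.63 in injected and 8.18 to 8.21 in not-injected livers. Among the 7 not called, Lrat differed by -0.28 and the rest by 0.02 to 0.94, with Col3a1 at 0.94 and Col1a2 at 0.62. Without injected replicate 2 this list had 3 genes higher. It had 0 lower without any one of not-injected replicates 2 and 3 and injected replicates 2 and 3. The same held without variance moderation and with the replicate number as a block. The part of these cells in the rises of Cd36, Lpl and Fabp5 was not tested.

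Of the 4 adipocyte markers 2 read below the lower quartile on all arrays. Adiponectin, encoded by Adipoq, read 3.96 to 4.12 in injected livers and 4.15 to 4.37 in not-injected livers, and leptin, encoded by Lep, 3.99 to 4.40 in injected and 4.11 to 4.31 in not-injected livers, all below the lower quartile of the arrays. The resistin gene Retn was above it, with 6.18 to 6.61 in injected and 6.27 to 6.56 in not-injected livers. Of the 4 markers, with a median of -0.06, 1 rose, the lipid droplet gene Cidec, which fatty liver also makes. Cidec read 7.42, 6.32 and 7.57 in injected livers, against 4.41, 5.06 and 5.05 in not-injected livers (limma adjusted p = 0.003). The mean level of the 4 markers was 5.37 to 5.45 in injected and 4.73 to 5.07 in not-injected livers. Cidec differed by 2.27, whereas Adipoq, Lep and Retn differed by -0.22, -0.04 and -0.08, so the higher mean came from Cidec alone.

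Genes that differ between male and female liver were read because Cd36 is one of them. The Y-linked Eif2s3y read 10.39 to 10.55 in injected and 10.55 to 10.70 in not-injected livers, and Xist read 6.16 to 6.24 in injected and 6.30 to 6.40 in not-injected livers, so that no array stood apart. On every array Eif2s3y was above the upper quartile and Xist below the median. Of 4 markers on the sex chromosomes 1, the Y-linked Uty, was called, with a difference of 0.31 ± 0.07, and it lost the call without any one of not-injected replicates 2 and 3 and injected replicate 1. Of 6 male-biased liver genes 5 fell, with a median of -2.59. Of 3 female-biased genes 0 were called by limma and 0 had an unadjusted p below 0.05, and without variance moderation 0 were called. Over all genes 28.1% were called, 14.2% as higher and 13.9% as lower. Among the female-biased genes Cyp2b9 had the smallest p and differed by 0.49 ± 0.23 (limma adjusted p = 0.157). Hsd3b5 read 7.08, 10.43 and 8.01 in injected livers, against 13.04, 13.04 and 13.08 in not-injected livers. The differences of Elovl3 and Cyp7b1 were -3.40 and -2.57, and without variance moderation Hsd3b5 and Cyp7b1 lost the call and 1 gene of the list was lower. The difference of Hsd3b5 was -3.83 without injected replicate 1 and -5.51 without injected replicate 2, and that of Elovl3 was -2.76 without injected replicate 1. In all 3 of these genes injected replicate 2 was nearest to the not-injected livers, and the part of sex-biased expression in the rise of Cd36 was not tested.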

How the data were processed

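Each of the 6 livers was measured on 1 array. The authors deposited log2 values per probe set, made with RMA in the affy package per the submitters' processing notes, where neither has a version. RMA adjusts background, equalises the arrays and combines probes, so a shift of all transcripts would not be seen and low and very high values are compressed. No detection calls came with the values. Precision is limited by how many arrays there were.

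Of 22690 probe sets, 64 were controls, 20380 had 1 gene symbol in the platform annotation, 691 had several and 1555 had none. Only those with 1 symbol were used, which gave 12393 genes, each read from its probe set with the highest mean. Differences were tested with limma 3.58.1 in R 4.3.3 (lmFit and eBayes, no covariate, no filter, two-sided), with Benjamini-Hochberg adjustment over all genes, and again over all probe sets. Intervals are 95% intervals of that fit. The code was tested on simulated data. With 3 arrays against 3 an exact permutation test cannot go below 0.1, so none is reported. Per the labels the livers are biological replicates.

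The 9 genes, the gene lists and the tests were chosen with earlier results of these data known. Named were all 9 genes, up to 3 called genes of each list by smallest p (the smallest p where none was called), up to 2 of each marker list by size, and the 5 genes most like Cd36. Named outside that rule were Tfeb, Fabp9, Angptl4, Angptl8, Scarb1, Ppara, Rxra, Vil1, Marco, Eng, Flt1, Cd3e, Cd3g, Cd79a, Lrat, Col3a1, Col1a2, Adipoq, Lep, Retn, Eif2s3y and Xist, chosen after their values were seen. Listed genes without a probe set of 1 symbol were not analysed here. Same-numbered replicates had correlations of their deviations from the group means of 0.14, 0.06 and 0.01, so the numbers were not taken to pair the livers. Sequences are from RefSeq, GRCm38.p6. Python 3.11.15 with pandas 2.3.3 and matplotlib 3.10.9 made tables and plots.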

Additional observations from a re-analysis of the deposited data

How the results depend on the processing

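The results were recomputed under 14 alternatives. Cd36, Lpl, Fabp5, Fabp2 and Slc27a5 kept their direction and their call in all 14, with differences of 3.66 to 3.84, 1.37 to 1.51, 0.725 to 0.92, -0.73 to -0.61 and -0.55 to -0.41. The highest adjusted p was 0.0486, for Slc27a5 without variance moderation. Some alternatives change only the error or the adjustment, so direction could not change there. These are the replicate block, both changes of moderation, the level filter and the fit over every probe set. Fabp1 was called in none, with -0.18 to -0.10. Fabp4 ran from 0.43 with the mean of all probe sets to 1.29 without injected replicate 2 (0.545 without injected replicate 1). It was called without injected replicate 2 and with the replicate number as a block (0.89, limma adjusted p = 0.0246). The labels do not say whether the numbers pair the livers, and they were not taken to do so. With the block 3348 genes were called in all, and Fabp4 was the only one of the 9 genes whose call it changed.

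Slc27a4 and Slc27a2, which were not called under any alternative, changed sign when single livers were left out. Slc27a4 read 0.006, 0.001, 0.021 and 0.028 without not-injected replicates 2 and 3 and injected replicates 1 and 2, and -0.114 without injected replicate 3, and Slc27a2 was -0.004 without injected replicate 2 and at most 0.063, when not-injected replicate 2 was left out. The count of called genes was 3486, and it was 1881 without variance moderation and 1973 to 4378 when a liver was left out (1973 and 2032 without not-injected replicates 2 and 3, 2103 without injected replicate 1). Of the values of other named genes and list counts, 822 kept their call or stayed within 1.5 times, 36 lost the call and 69 counts moved further. The arrays carry no detection calls, so signal over background is unknown for the dim probe sets.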
